A study of Mus musculus with 12 samples.

Results

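The 10 genes described here are regulators and markers of hematopoietic progenitors: Runx1, Myb, Ikzf1, Gfi1, Cbfa2t3, Hhex, Meis1, Mecom, Hlf and Cd34. They were chosen by name for their roles in early blood formation, with earlier results of these data known. They were measured among 18193 genes on an Affymetrix Mouse Genome array. The array annotation assigned 26 of its 34945 single-gene probe sets to these genes alone. For each gene the probe set with the highest mean over the 12 arrays carries the gene's value, and the effects of the others are given beside it. The samples were mouse yolk sacs in 4 groups of 3 arrays: Norrin (Z/Norrin) and wild type at E10.5, and Norrin and wild type at E8.5. In the Norrin groups, this secreted Frizzled4 ligand was expressed ectopically from a conditional over-expression allele. The driver and the time of its activation are not given in the sources used here. Each array held RNA of 1 pool of 3 to 5 yolk sacs, of mixed gender and a mixed C57Bl6/129 background, so the replicates are separate pools, and every group shares that background. The series addresses what signalling by Norrin through Frizzled4 does to transcription in the yolk sac.

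The yolk sac is the first blood-forming organ of the mouse embryo. It makes primitive red cells and macrophages early, and later erythro-myeloid progenitors that bud from hemogenic endothelium, a specialised endothelium that switches on Runx1. Runx1 partners with core binding factor beta, represses endothelial genes together with Gfi1, and is needed for this transition, while Myb maintains the definitive progenitors that follow. Meis1, Mecom, Hlf and Hhex act in stem and progenitor cells, Ikzf1 (Ikaros) in lymphoid and erythroid lineages, and Cbfa2t3 (Eto2) as a corepressor in erythroid and megakaryocytic complexes. Cd34 is a surface sialomucin of progenitors and endothelium.

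All values are log2 expression values as the authors deposited them, made with the array summary method RMA. Array medians ran from 6.97 to 7.01 at E10.5 and from 6.59 to 6.73 at E8.5. Arrays of 1 group correlated at r = 0.975 to 0.992 over genes. The yolk sac markers were present: Afp, a secreted protein of visceral endoderm, averaged 14.67 ± 0.15 in Norrin and 14.71 ± 0.06 in wild type at E10.5, and 13.42 ± 0.63 in Norrin and 14.47 ± 0.19 in wild type at E8.5 (SD, n = 3, limma adjusted p = 0.234 at E8.5, or 0.0215 with replicate number as a block). The Gapdh 3′ minus 5′ difference, a sign of RNA quality, was 0.50 in Norrin and 0.61 in wild type in the E8.5 replicate 2 pools and 0.02 to 0.15 in the other 10. Norrin E10.5 replicate 2 stood apart by trophoblast markers. The median of 7 such genes lay 1.79 above the wild type mean of the stage in that pool, 0.08 and -0.19 from it in the other Norrin pools, and between -0.28 and 0.16 from it in wild type. At E8.5 Norrin replicate 2 was the highest, at 0.59, and the other 5 pools lay between -0.20 and 0.13. Some of the results are also given without 1 of these pools, in the fit without the block only. Same-numbered Norrin and wild type pools of a stage deviated together from their group means, weakly in some pairs (r from 0.209 to 0.73). The weakest of these pairs had 0.318 at E8.5 and 0.209 at E10.5. Different-numbered pairs came close to that, at -0.721 to 0.296 at E8.5 and -0.347 to 0.156 at E10.5. A fit that treats the replicate number as a block inside each stage is therefore given beside the Norrin effects whose call it changes.

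No member passed the threshold for a Norrin effect by its chosen probe set in the fit without the block. At E10.5 limma called 0 of 10 members after Benjamini-Hochberg adjustment over all genes, where 4.07% of all genes were called, and 2 had an unadjusted p under 0.05 (14% of all genes). At E8.5 it called 0 of 10, where 0.077% of genes were called, and 1 had an unadjusted p under 0.05 (7.22%). With the block, 2 of 10 were called at E10.5 (13.2% of genes), Ikzf1 and Mecom, both lower in Norrin. At E8.5, 1 of 10 was called with the block (1.41% of genes), Mecom, again lower. The median member effect was -0.08 at E10.5 and -0.16 at E8.5 (log2), beside 0.00 and -0.02 over all genes, and 3 of 10 members had a positive effect at each stage. By the other probe sets, Runx1 was the member with calls in the fit without the block, and they were higher in Norrin.

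**Figure D1:**
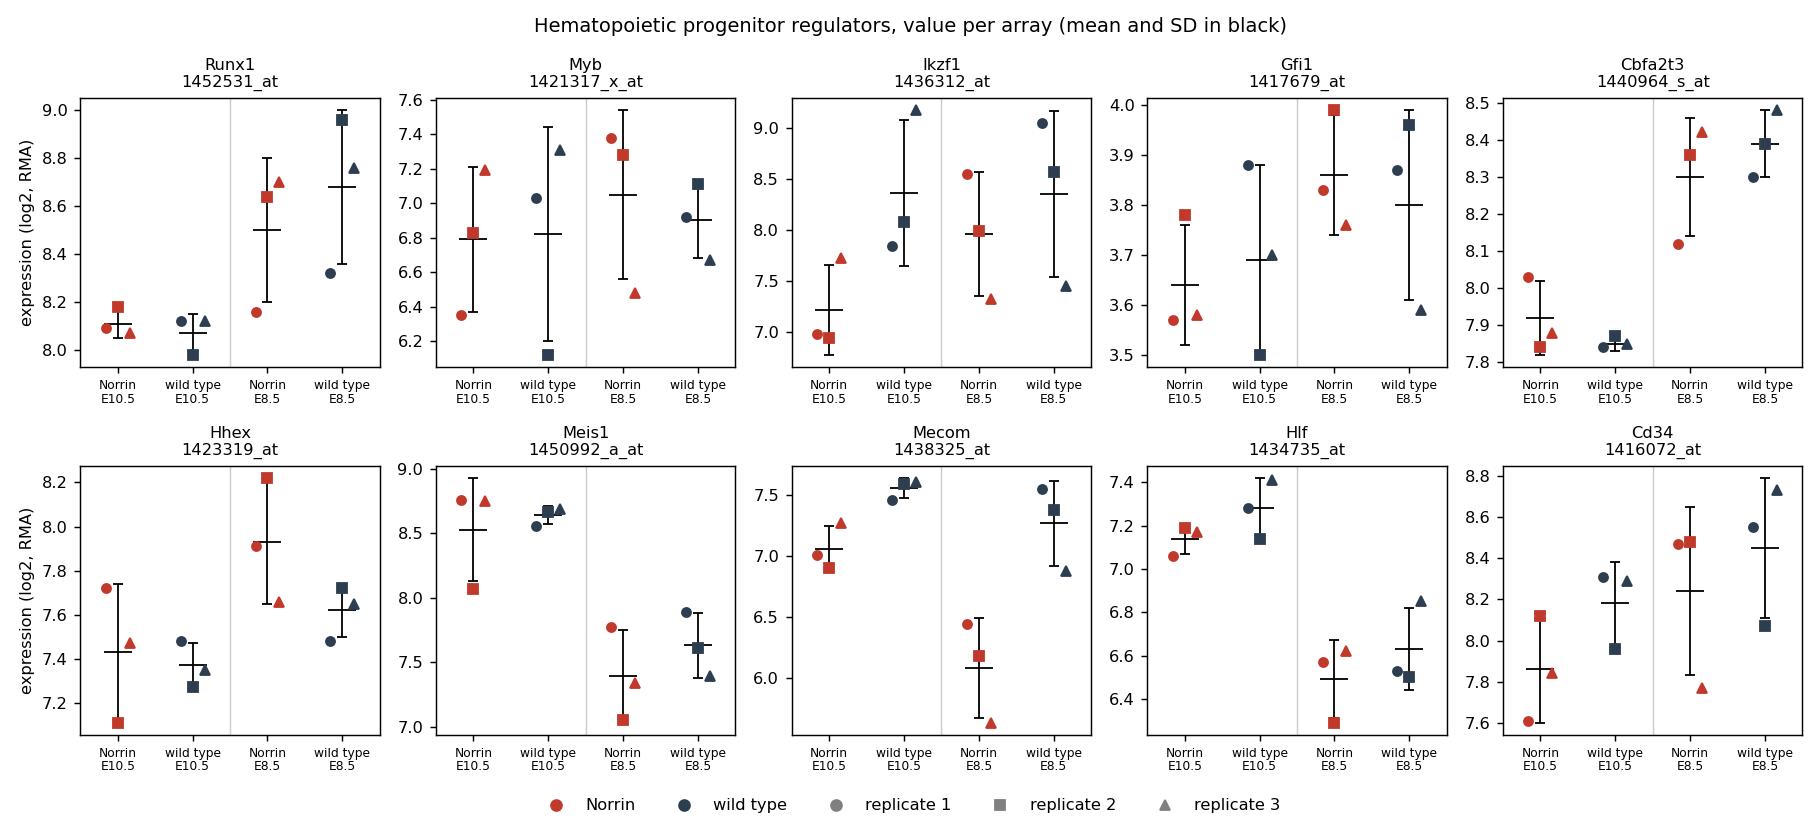
Log2 expression of the chosen probe set of each of the 10 members on every array, with Norrin left of wild type at each stage; symbols mark the replicate number, and black bars the mean and SD of 3 arrays. Mecom lay at 5.63 to 6.44 in Norrin and 6.88 to 7.55 in wild type at E8.5, and Meis1 and Hlf were higher at E10.5 than at E8.5 in both genotypes.

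Runx1 (chr16:92601466-92826074, GRCm38.p6), the transcription factor of the endothelial to hematopoietic transition, gave different answers by different probe sets. Its chosen probe set, 1452531_at, read 8.09, 8.18 and 8.07 in Norrin and 8.12, 7.98 and 8.12 in wild type at E10.5. The groups overlapped, with an effect of 0.04 (95% confidence interval -0.34 to 0.42). At E8.5 it read 8.16, 8.64 and 8.70 in Norrin and 8.32, 8.96 and 8.76 in wild type, again overlapping (effect -0.18, interval -0.56 to 0.20).

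The other 5 Runx1 probe sets did not all follow it. At E10.5, 1422865_at read 6.48, 6.53 and 6.65 in Norrin and 5.53, 5.25 and 5.53 in wild type. Every Norrin pool lay above every wild type pool, and this probe set was 2.16-fold higher (log2 1.11, SE 0.22, limma adjusted p = 0.0206 over all single-gene probe sets). Probe set 1427650_a_at read 7.17, 7.20 and 7.33 in Norrin and 6.81, 6.44 and 6.51 in wild type. It was 1.57-fold higher (0.65, SE 0.16, adjusted p = 0.0484), with no overlap. Probe set 1422864_at read 7.55, 7.74 and 7.72 in Norrin and 6.33, 6.28 and 6.28 in wild type at E10.5. Its groups were far apart there, but its adjusted p was 0.102 (effect 1.37, SE 0.39), and 0.000466 with the block. Without wild type E8.5 replicate 3 it was 0.0305, and with only the E10.5 arrays 0.00234 (both without the block). In the fit over all 12 arrays its spread at E8.5, an SD of 0.80 in Norrin and 0.82 in wild type, enters the error. The groups of 1440878_at were apart too, with a difference of 0.36 (adjusted p = 0.313 without and 0.0596 with the block), and those of 1452530_a_at overlapped (-0.10).

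At E10.5, then, 4 of the 6 Runx1 probe sets had non-overlapping groups, all higher in Norrin, and 2 did not. Over the 26 member probe sets 8 were apart at E10.5 (22.1% of all single-gene probe sets), and 2 were called (2.8%), both of Runx1. With the block 5 were called (11%): 3 of Runx1, 1 of Ikzf1 and 1 of Mecom. The Runx1 calls were sensitive to single arrays. Without Norrin E10.5 replicate 2, the pool with high trophoblast markers, 1422865_at had an effect of 1.13 (adjusted p = 0.0542) and 1427650_a_at of 0.67 (0.107). With each array left out in turn the effect of 1422865_at stayed between 1.02 and 1.16, with adjusted p from 0.00433 to 0.0943, and it was called only while all 6 E10.5 arrays were kept. That of 1427650_a_at ran from 0.57 to 0.76, with adjusted p from 0.035 to 0.196, and it was not called without wild type E8.5 replicate 1, Norrin E8.5 replicate 1 or 2, wild type E10.5 replicate 2 or 3, or any Norrin E10.5 pool. The mean of all 6 probe sets gave Runx1 an effect of 0.57 at E10.5 (adjusted p = 0.0156) and of 0.30 at E8.5 (0.591).

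At E8.5 none of the 26 member probe sets was called without the block (0.0458% of all single-gene probe sets), and 2 were apart (10.8%). The Runx1 probe set 1427650_a_at was 1 of them, at 7.80, 7.77 and 7.40 in Norrin and 6.93, 7.34 and 7.0 in wild type. Its effect of 0.57 (SE 0.16) had an unadjusted p of 0.00337 and an adjusted p of 0.481. Probe set 1422864_at read 8.36, 7.52 and 6.76 in Norrin and 7.32, 7.13 and 5.81 in wild type at E8.5. The pools overlapped, but each Norrin pool exceeded its same-numbered wild type pool, by 1.04, 0.40 and 0.95, and the blocked fit called it (0.80, adjusted p = 0.0364). Without wild type E8.5 replicate 3, its effect was 0.33 in the fit without the block. With the block 2 member probe sets passed at E8.5 (0.816%), this one and that of Mecom.

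**Figure D2:**
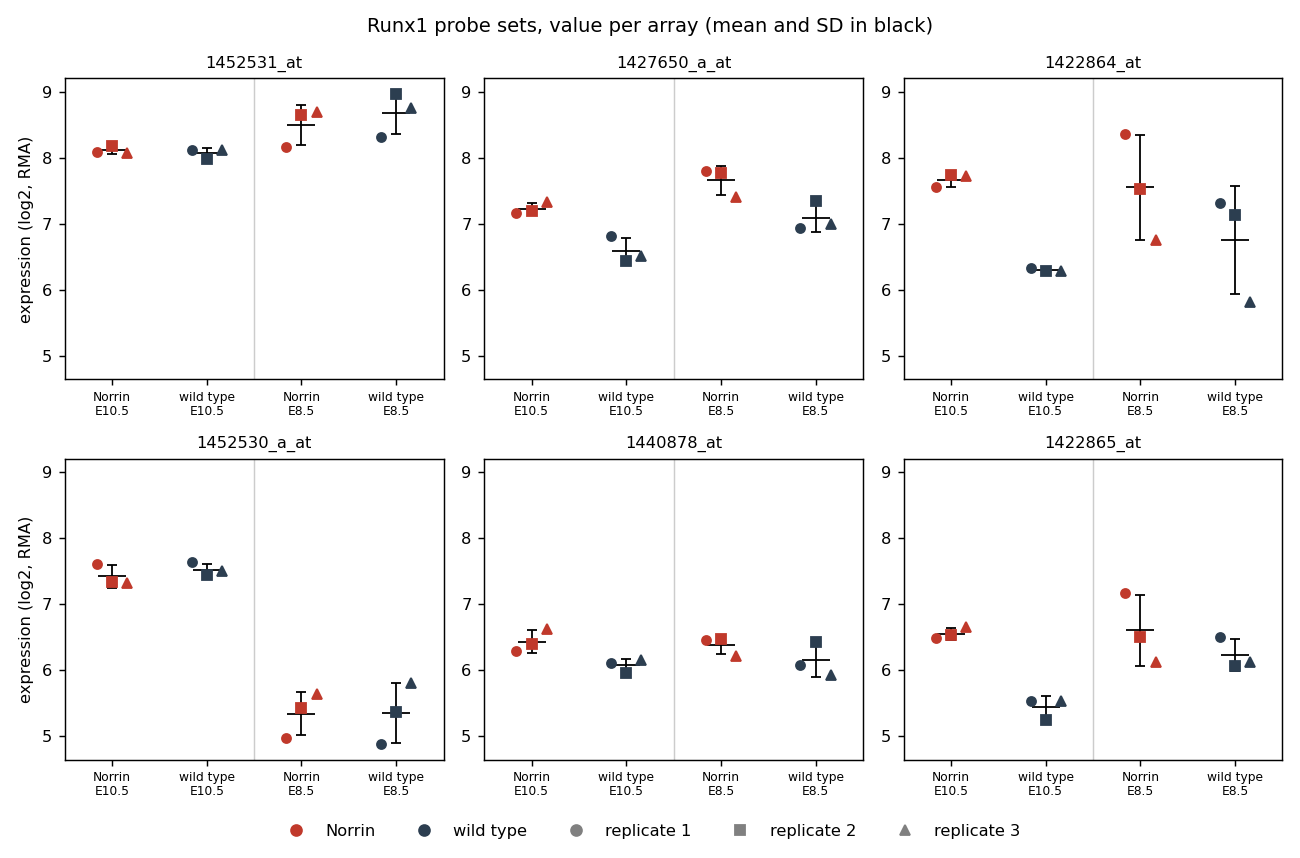
Log2 expression of the 6 Runx1 probe sets on every array on a shared scale, with Norrin left of wild type at each stage, symbols for replicate numbers, and the mean and SD of 3 arrays in black. At E10.5 the Norrin pools lay above all wild type pools for 1427650_a_at, 1422864_at, 1440878_at and 1422865_at, and overlapped them for 1452531_at and 1452530_a_at.

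The annotation records of these probe sets differ, and where on the transcript each lies was not given in the sources used here. Probe sets 1422864_at and 1422865_at share a record, as do 1452530_a_at and 1452531_at. Whether the probe sets read different isoforms was not tested. Runx1 is transcribed from a distal and a proximal promoter, both shown here because the probe sets of the gene disagree. The RefSeq promoter windows (GRCm38.p6, minus strand, 250 bases before to 50 after the start) are chr16:92826025-92826324 for the distal and chr16:92697280-92697579 for the proximal start. Capitals mark matches, on either strand, to any of 5 short motifs. TGTGGT stood for the RUNX motif. AGATAA stood for that of the GATA factors. GGAAG is the core of the ETS family motif. CTTTGA is read by the TCF/LEF partners of beta-catenin. CACCC is read by the KLF factors.
Runx1 distal: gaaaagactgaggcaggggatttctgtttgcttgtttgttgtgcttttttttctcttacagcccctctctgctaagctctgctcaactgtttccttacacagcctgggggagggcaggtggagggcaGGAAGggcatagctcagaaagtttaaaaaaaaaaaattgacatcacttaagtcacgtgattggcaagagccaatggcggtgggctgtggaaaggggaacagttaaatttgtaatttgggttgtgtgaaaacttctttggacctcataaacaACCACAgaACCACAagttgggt
Runx1 proximal: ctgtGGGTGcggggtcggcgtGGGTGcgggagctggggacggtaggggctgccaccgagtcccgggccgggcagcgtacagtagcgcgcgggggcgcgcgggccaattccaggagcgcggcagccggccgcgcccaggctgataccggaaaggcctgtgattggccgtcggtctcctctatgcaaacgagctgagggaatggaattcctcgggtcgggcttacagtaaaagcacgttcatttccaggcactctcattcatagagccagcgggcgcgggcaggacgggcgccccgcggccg
The distal window held 2 RUNX matches, both just after the start, and 1 ETS match 123 bases before it. The proximal window held 2 KLF matches and 35 CpG dinucleotides, against 2 in the distal window. Neither held the TCF/LEF or the GATA letters. Of 32851 promoters in the table, 16.8% held the RUNX letters, 71.4% the ETS letters, 57.5% the KLF letters, 16% the TCF/LEF letters and 11.2% the GATA letters.

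Mecom (chr3:29951296-30509759) encodes zinc finger transcription factors that sustain stem cells. Its chosen probe set, 1438325_at, read 7.01, 6.90 and 7.27 in Norrin and 7.46, 7.59 and 7.61 in wild type at E10.5. At E8.5 it read 6.44, 6.18 and 5.63 in Norrin and 7.55, 7.38 and 6.88 in wild type. At both stages every Norrin pool lay below every wild type pool (groups did not overlap for 22.9% of genes at E10.5 and 11.9% at E8.5). The effect at E10.5 was -0.50 (SE 0.21, adjusted p = 0.301), a 1.41-fold lower level, and with the block the adjusted p was 0.00991. At E8.5 the effect was -1.19 (SE 0.21, adjusted p = 0.0807), 2.28-fold lower, and with the block the adjusted p was 0.00205. Each same-numbered pair went the same way, by -0.45, -0.70 and -0.34 at E10.5 and by -1.11, -1.20 and -1.26 at E8.5. Replicate 3 was lowest in both genotypes at E8.5, where the differences within pairs varied less than the pools did. Without Norrin E10.5 replicate 2 the E10.5 effect was -0.42 (adjusted p = 0.574 without the block), and without Norrin E8.5 replicate 2 the E8.5 effect was -1.24 (0.301).

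The 2 effects of Mecom differed by 0.69 (E10.5 minus E8.5, interval 0.04 to 1.35), with an adjusted p of 0.667, and 0.0379 with the block. Mecom was the 1 member called for this difference with the block (2.07% of genes), and 0 of 10 were called without it (0.0934%), with 1 at an unadjusted p under 0.05 (7.01%). In the fit over all single-gene probe sets the same probe set missed the threshold with the block (adjusted p = 0.052). Its other 2 probe sets showed smaller differences. Probe set 1422295_at had effects of -0.27 at E10.5 (adjusted p = 0.395), where the groups were apart, and -0.10 at E8.5. Probe set 1423011_at read 3.44 to 3.70 on all 12 arrays, with effects of -0.10 and -0.04. The mean of the 3 Mecom probe sets gave -0.29 at E10.5 (adjusted p = 0.175 without the block) and -0.44 at E8.5 (0.238). The RefSeq windows of the upstream start (chr3:30509710-30510009, minus strand) and of the downstream start (chr3:30013155-30013454, minus strand) are shown because Mecom is the member that passed with the block at both stages, with the same motifs in capitals.
Mecom upstream start: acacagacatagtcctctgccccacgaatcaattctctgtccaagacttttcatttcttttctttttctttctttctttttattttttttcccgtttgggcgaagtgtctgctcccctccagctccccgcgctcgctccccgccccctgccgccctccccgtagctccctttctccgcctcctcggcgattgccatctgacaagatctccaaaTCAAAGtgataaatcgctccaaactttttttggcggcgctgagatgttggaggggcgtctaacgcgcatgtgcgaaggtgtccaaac
Mecom downstream start: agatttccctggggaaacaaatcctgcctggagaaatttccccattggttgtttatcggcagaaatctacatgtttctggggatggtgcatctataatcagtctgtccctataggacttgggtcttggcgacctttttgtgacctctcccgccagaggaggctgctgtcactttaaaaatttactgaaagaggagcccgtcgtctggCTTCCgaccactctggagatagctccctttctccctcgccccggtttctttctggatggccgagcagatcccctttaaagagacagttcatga
The upstream window held 1 TCF/LEF match, 37 bases before the start, and the downstream window 1 ETS match 43 bases before it. Of all promoters 16% held the TCF/LEF letters and 71.4% the ETS letters. No other of the 15 promoters of the members held the TCF/LEF letters. Whether these matches are used was not tested.

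Ikzf1 (chr11:11684962-11772930), a zinc finger factor of chromatin repression in blood lineages, was the other member called with the block at E10.5. Its chosen probe set, 1436312_at, read 6.98, 6.94 and 7.73 in Norrin and 7.84, 8.08 and 9.17 in wild type at E10.5. The groups did not overlap, by a margin of 7.73 against 7.84. The effect was -1.15 (SE 0.45, interval -2.11 to -0.18, adjusted p = 0.24), 2.21-fold lower, and with the block the adjusted p was 0.00104. Without wild type E10.5 replicate 3, which was the highest pool, the effect was -0.74, and without Norrin E10.5 replicate 2 it was -1.01 (adjusted p = 0.639 and 0.458 without the block). At E8.5 it read 8.55, 7.99 and 7.33 in Norrin and 9.04, 8.57 and 7.45 in wild type. The pools overlapped, each Norrin pool was below its same-numbered wild type pool, and the effect was -0.40 (interval -1.37 to 0.57, adjusted p = 0.149 with the block).

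The other Ikzf1 probe set, 1421303_at, read 7.58, 7.61 and 7.37 in Norrin and 7.56, 7.79 and 8.46 in wild type at E10.5, with overlap and a difference of -0.42 (adjusted p = 0.424, or 0.214 in the blocked fit). Most of that difference lay in the replicate 3 pair (-1.09, against 0.02 and -0.18 in the others). The mean of both Ikzf1 probe sets gave -0.78 at E10.5 (adjusted p = 0.161 without the block) and -0.37 at E8.5 (0.754). Erythroid markers were lower in Norrin at E10.5 too. The mean level of 14 erythroid genes ran from 9.63 to 9.68 in Norrin and from 10.30 to 11.45 in wild type there. Wild type replicate 3 was the highest for Ikzf1 and for these genes. Within Norrin at E10.5 the erythroid mean was flat, while Ikzf1 1436312_at read 6.98, 6.94 and 7.73. In the other groups both ordered the pools alike. For replicates 1 to 3 the erythroid mean was 10.30, 10.88 and 11.45 in wild type at E10.5 (Ikzf1 7.84, 8.08 and 9.17). At E8.5 it was 10.67, 10.65 and 10.31 in Norrin (Ikzf1 8.55, 7.99 and 7.33). In wild type at E8.5 it was 11.03, 10.74 and 10.54 (Ikzf1 9.04, 8.57 and 7.45). The part of the erythroid genes in the Ikzf1 difference was not tested. In whole yolk sac fewer cells of a type and less RNA per cell cannot be told apart.

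**Figure D3:**
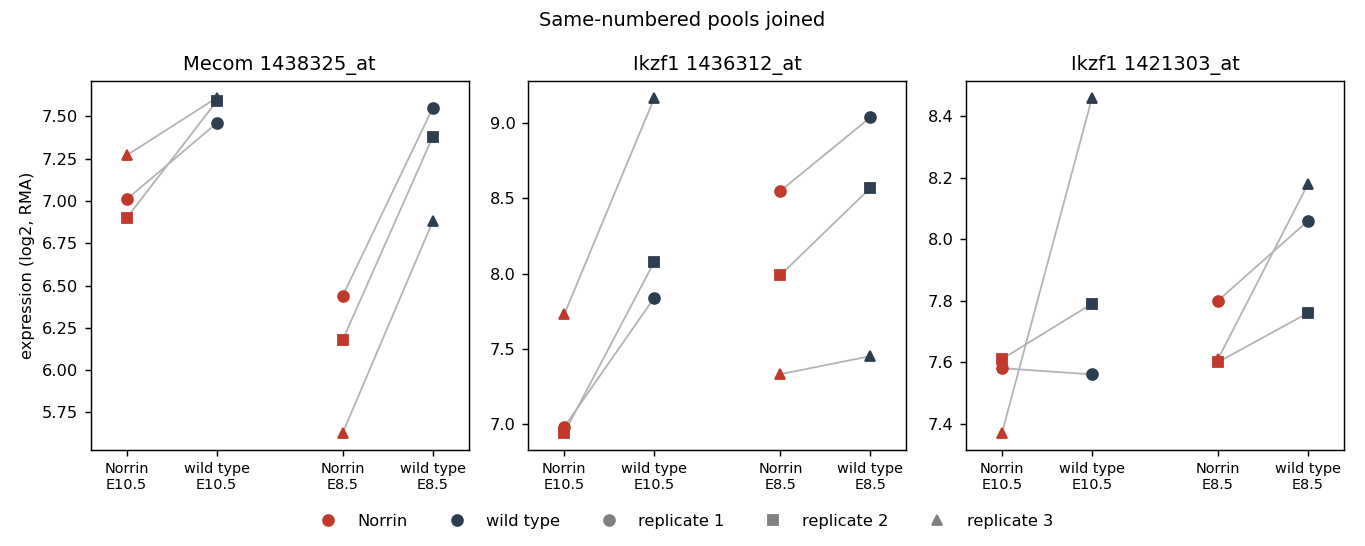
Log2 expression of the Mecom probe set 1438325_at and both Ikzf1 probe sets, with Norrin left of wild type at each stage and lines joining pools that share a replicate number. The Norrin pool is the lower one in all 6 pairs for Mecom and for Ikzf1 1436312_at, and in 5 of 6 for Ikzf1 1421303_at.

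Myb (chr10:21124930-21160984), the factor that maintains definitive progenitors, did not pass at either stage by any of its 3 probe sets. Its chosen probe set, 1421317_x_at, read 6.35, 6.83 and 7.19 in Norrin and 7.03, 6.12 and 7.31 in wild type at E10.5. At E8.5 it read 7.38, 7.28 and 6.48 in Norrin and 6.92, 7.11 and 6.67 in wild type. The pools were interleaved at both stages, and the intervals of the effect were wide, from -0.73 to 0.66 at E10.5 and from -0.55 to 0.84 at E8.5. The other Myb probe sets overlapped too, with effects of -0.13 at E10.5 and 0.04 at E8.5 by 1450194_a_at and of -0.25 and 0.05 by 1422734_a_at. Gfi1 (chr5:107716655-107725805), a repressor that acts downstream of Runx1 in hemogenic endothelium, read between 3.50 and 3.99 on all 12 arrays. That was the 1.78th percentile of gene levels, the 1 member below the 25th, with effects of -0.05 at E10.5 and 0.05 at E8.5.

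Cbfa2t3 (chr8:122625136-122699332) varied little. It read 8.03, 7.84 and 7.88 in Norrin and 7.84, 7.87 and 7.85 in wild type at E10.5, and 8.12, 8.36 and 8.42 in Norrin and 8.30, 8.39 and 8.48 in wild type at E8.5. The groups overlapped at both stages, and the intervals of the effect, -0.18 to 0.31 at E10.5 and -0.33 to 0.16 at E8.5, were the narrowest of the 10 members. Of its other 3 probe sets, 1440963_at was apart at E10.5, at -0.17 relative to wild type (adjusted p = 0.834, or 0.333 in the blocked fit), and had 0.02 at E8.5. The other 2 overlapped at both stages, with effects of 0.05 at E10.5 and -0.16 at E8.5 by 1418582_at and of -0.04 and -0.13 by 1438705_at.

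Hhex (chr19:37434841-37440731), a homeobox factor of endoderm and of endothelial and blood precursors, had its largest difference at E8.5. It read 7.91, 8.22 and 7.66 in Norrin and 7.48, 7.72 and 7.65 in wild type there, and 7.72, 7.11 and 7.47 in Norrin and 7.48, 7.27 and 7.35 in wild type at E10.5. The groups overlapped at both stages. The effect at E8.5 was 0.31 (interval -0.06 to 0.69, adjusted p = 0.719, 0.188 with the block) and at E10.5 0.07 (-0.31 to 0.44).

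Meis1 (chr11:18880428-19019651) and Hlf (chr11:90336535-90390917), transcription factors of stem and progenitor cells, did not pass the test for a genotype difference at either stage. Meis1 read 8.76, 8.07 and 8.75 in Norrin and 8.56, 8.67 and 8.69 in wild type at E10.5, where Norrin replicate 2 was the lowest pool. Its effects were -0.11 (interval -0.59 to 0.36) at E10.5 and -0.24 (-0.72 to 0.23) at E8.5. Its other probe sets gave -0.11 at E10.5 and -0.10 at E8.5 (1443260_at) and -0.06 and -0.02 (1459423_at). Hlf read 7.06, 7.19 and 7.17 in Norrin and 7.28, 7.14 and 7.41 in wild type at E10.5, with effects of -0.14 at both stages, and 1434736_at gave -0.13 at E10.5 and -0.27 at E8.5. Cd34 (chr1:194938821-194961292) read 7.61, 8.12 and 7.84 in Norrin and 8.31, 7.96 and 8.29 in wild type at E10.5. The groups overlapped through replicate 2, and the effect was -0.33 (interval -0.82 to 0.16). At E8.5 Cd34 read 8.47, 8.48 and 7.77 in Norrin and 8.55, 8.07 and 8.73 in wild type, with an effect of -0.21 (-0.70 to 0.28).

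**Figure D4:**
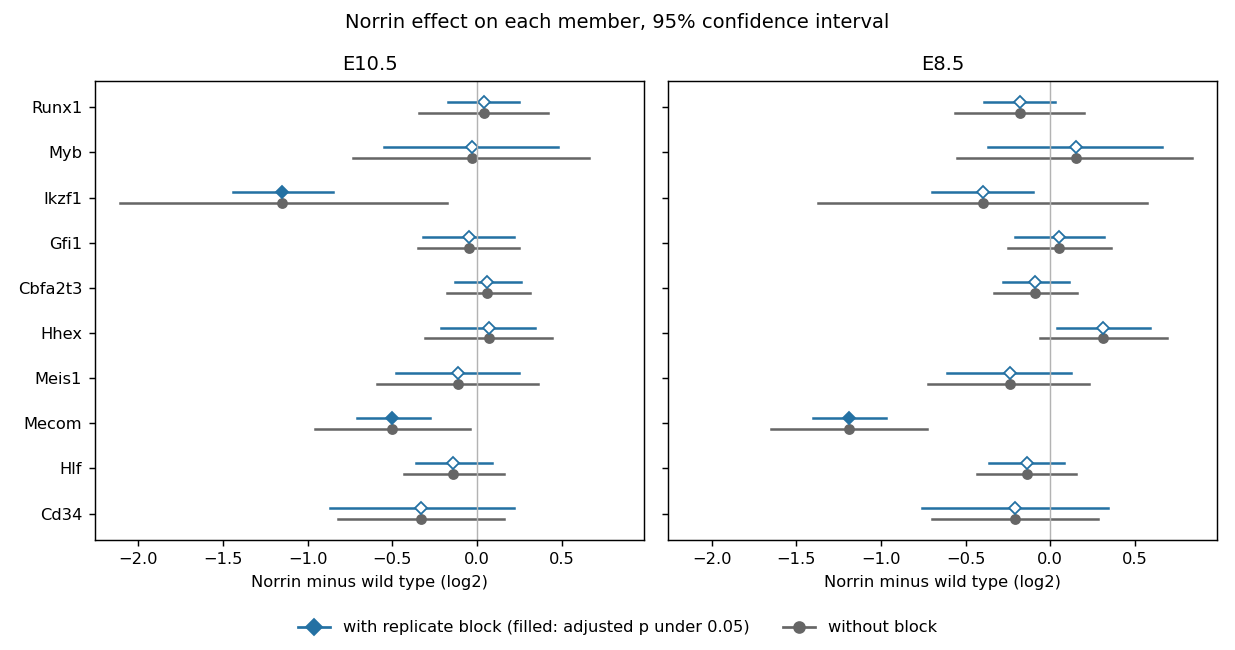
Norrin effect (Norrin minus wild type, log2) on the chosen probe set of each member at E10.5 and E8.5, with 95% confidence intervals; diamonds are from the blocked fit, filled where the adjusted p is under 0.05, and circles from the fit without it. Mecom at both stages (-0.50 at E10.5 and -1.19 at E8.5) and Ikzf1 at E10.5 (-1.15) are the filled points.

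Between stages Meis1, Hlf and Cbfa2t3 were called in both genotypes. The number of members called was not far from the share over all genes in either. In Norrin 5 of 10 members were called (37.9% of genes): Meis1, Mecom and Hlf were higher at E10.5 than at E8.5 (28.2% of genes were higher), and Cbfa2t3 and Hhex were lower (9.69%). In wild type 4 of 10 were called (32.5%): Meis1 and Hlf were higher (25.4%), and Cbfa2t3 and Runx1 were lower (7.12%). Meis1 rose by 1.14 in Norrin and 1.01 in wild type (log2, SE 0.22 each), and the difference between the genotypes was not called. Hlf rose by 0.65 in both, and Cbfa2t3 fell by 0.39 in Norrin and 0.54 in wild type. By its chosen probe set Mecom rose by 0.98 in Norrin (adjusted p = 0.00351) and had 0.29 in wild type (0.331). Its probe set 1422295_at rose in both genotypes, by 0.75 in Norrin (0.0007) and 0.92 in wild type (0.000222), and the mean of its 3 probe sets gave 0.53 (0.00163) and 0.37 (0.0144). The difference between genotypes of the chosen probe set is the same quantity as the difference of its 2 Norrin effects given above.

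The Hhex call in Norrin (-0.50, adjusted p = 0.0391) was lost with 1 replicate block across all 12 arrays (0.0531), and the mean of the 4 Cbfa2t3 probe sets gave -0.23 in Norrin (0.104) and -0.29 in wild type (0.0452).

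These stage values carry a limit of the deposited data. Any pair of arrays of the same stage had 26 to 93 values in common to the last digit, whereas none of the 36 pairs of different stages had any (0), so stage and normalization run cannot be told apart. The array medians were 0.36 higher at E10.5 in Norrin and 0.30 higher in wild type. With each array centred on its median, Meis1 kept 0.78 in Norrin and 0.71 in wild type and was called in both, as it was after quantile normalization of all 12 arrays (0.90 and 0.82). Cbfa2t3 was lower and called in both genotypes under both scalings. Hhex and Runx1 were lower and called in both genotypes under both as well. Cd34 was lower and called in Norrin under both (adjusted p = 0.0234 and 0.0487), and Gfi1 in both genotypes after centring (0.00767 in Norrin and 0.0417 in wild type). Gfi1, near the floor of the scale, was not called after quantile normalization (0.27 in Norrin and 0.734 in wild type) or without scaling (0.246 and 0.582). Hlf was not called under either in either genotype, at 0.29 to 0.36. Mecom in Norrin had 0.62 after centring (adjusted p = 0.0453) and 0.61 after quantile normalization (0.0507). Of all calls 74.4% were higher in Norrin and 78.1% in wild type, against 28.3% and 32.7% after centring and 46% and 46.3% after quantile normalization.

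Runx1 probe sets disagreed by stage too. Probe set 1452530_a_at read 7.61, 7.33 and 7.32 at E10.5 and 4.97, 5.42 and 5.63 at E8.5 in Norrin, and 7.63, 7.44 and 7.50 at E10.5 and 4.88, 5.37 and 5.80 at E8.5 in wild type. It was higher at E10.5 by 2.08 in Norrin (adjusted p = 3.73e-05) and by 2.17 in wild type (3.41e-05), well beyond the shift of the array medians. The chosen probe set, 1452531_at, which has the same annotation record, had -0.39 in Norrin (0.104) and -0.61 in wild type (0.0202). In wild type the Runx1 call was lost without E8.5 replicate 2 (effect -0.47), a pool with a high Gapdh 3′ minus 5′ difference whose part in this was not tested, or E10.5 replicate 2 (-0.56). The mean of all 6 probe sets gave 0.23 in Norrin (adjusted p = 0.131), opposite to the chosen probe set, and -0.04 in wild type (0.807). In wild type 1427650_a_at and 1422865_at were also lower at E10.5, by effects of -0.50 and -0.79. In Norrin 1427650_a_at fell by 0.42 (adjusted p = 0.0493), and 1422865_at had -0.04.

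Among other genes of the same pathways, 1 gene, the receptor tyrosine kinase Kit, was called higher in Norrin at E10.5 and 2, Tal1 and Itga2b, lower. They were 3 of 18 other progenitor genes measured out of 20 listed (1.85% of all genes were higher and 2.22% lower), and the median effect of the 18 was 0.02. With the block 3 were higher and 4 lower (13.2% of all genes were called with it). At E8.5 limma called 0 of the 18, with 0 at an unadjusted p under 0.05 and 0 with the block. Kit, the stem cell factor receptor, read 8.81, 9.52 and 8.98 in Norrin and 7.16, 7.02 and 7.48 in wild type at E10.5. All Norrin pools were far above all wild type pools, with an effect of 1.88 (SE 0.29, adjusted p = 0.0033), which was 1.68 without Norrin replicate 2 (0.012), and the other Kit probe set gave 1.10. Tal1, a partner of Lmo2 and Gata factors, read 7.67, 7.57 and 7.94 in Norrin and 8.70, 9.57 and 9.88 in wild type at E10.5 (-1.65, SE 0.36, adjusted p = 0.0227). Itga2b (CD41), a surface mark of early progenitors and megakaryocytes, fell by 0.45 (SE 0.11, adjusted p = 0.0475). Without Norrin replicate 2 the adjusted p was 0.0709 for Tal1 and 0.129 for Itga2b, with effects of -1.58 and -0.44. With each array left out in turn the adjusted p of Tal1 reached 0.097, without wild type replicate 3, and that of Itga2b 0.181, without the same pool, and Itga2b was called without wild type E8.5 replicate 3 or Norrin E8.5 replicate 1 only. Its call was also lost with quantile normalization (0.05), a mean-variance trend (0.0905) and the filter on dim genes (0.054).

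Direct partners and relatives of the members, among them core binding factor subunits, PBX and Ikaros family factors, did not pass. Limma called 0 of the 20 measured out of 22 at E10.5 (4.07% of all genes) and 0 at E8.5 (0.077%). At an unadjusted p under 0.05 there were 2 (14% of all genes) and 0 (7.22%). With the block 2 were called at E10.5 (13.2% of all genes), both lower, and 0 at E8.5 (1.41%). Their median effect was 0.00 at both stages.

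Red cell genes were lower in Norrin at E10.5. Over all genes 4.07% were called at E10.5 (13.2% with the block) and 0.077% at E8.5 (1.41% with the block). Of 14 erythroid genes 0 rose and 8 fell at E10.5, with a median effect of -1.26 (13 fell with the block), and 0 were called at E8.5, with a median of -0.18, 0 at an unadjusted p under 0.05 and 0 with the block. Per pool, the erythroid median differed from the wild type mean by -1.27, -1.28 and -1.27 for Norrin and by -0.49, -0.03 and 0.55 for wild type at E10.5. Klf1, the erythroid Kruppel-like factor, averaged 7.90 ± 0.32 in Norrin and 9.73 ± 0.64 in wild type there (SD, n = 3, limma adjusted p = 0.00733). Of 8 megakaryocyte genes 2 fell at E10.5 (4 with the block, median -0.36), of 15 macrophage and myeloid genes 2 fell (2 with the block, median -0.13), and of 14 endothelial genes 1 rose (3 with the block, median 0.15). Csf1r, the macrophage growth factor receptor, averaged 10.52 ± 0.58 in Norrin and 10.86 ± 0.60 in wild type at E10.5. Pf4, a megakaryocyte chemokine, differed by -0.58 (adjusted p = 0.855, or 0.00844 in the blocked fit), and Cdh5, the endothelial cadherin, by 0.41 (0.546). Of 17 visceral endoderm genes 3 fell at E10.5 (median -0.34), and with the block 2 rose and 8 fell. At E8.5 1 of them fell (median -0.25), 8 had an unadjusted p under 0.05, and with the block 2 rose and 5 fell. Of 13 mesenchyme genes 3 rose at E10.5 (6 with the block) and of 9 decidua genes 1 rose (with the block 4 rose and 1 fell). At E10.5 limma called 0 of 7 trophoblast and 0 of 9 embryo neural genes, with 1 and 3 at an unadjusted p under 0.05 and 0 and 1 with the block. At E8.5 limma called 0 genes of the megakaryocyte, macrophage and myeloid, endothelial, mesenchyme, trophoblast, decidua and embryo neural lists. Of these lists 1 endothelial, 2 mesenchyme and 1 trophoblast genes had an unadjusted p under 0.05 there, and with the block 2 mesenchyme genes and 1 decidua gene rose. The part of these cell types in the members' values was not tested.

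**Figure D5:**
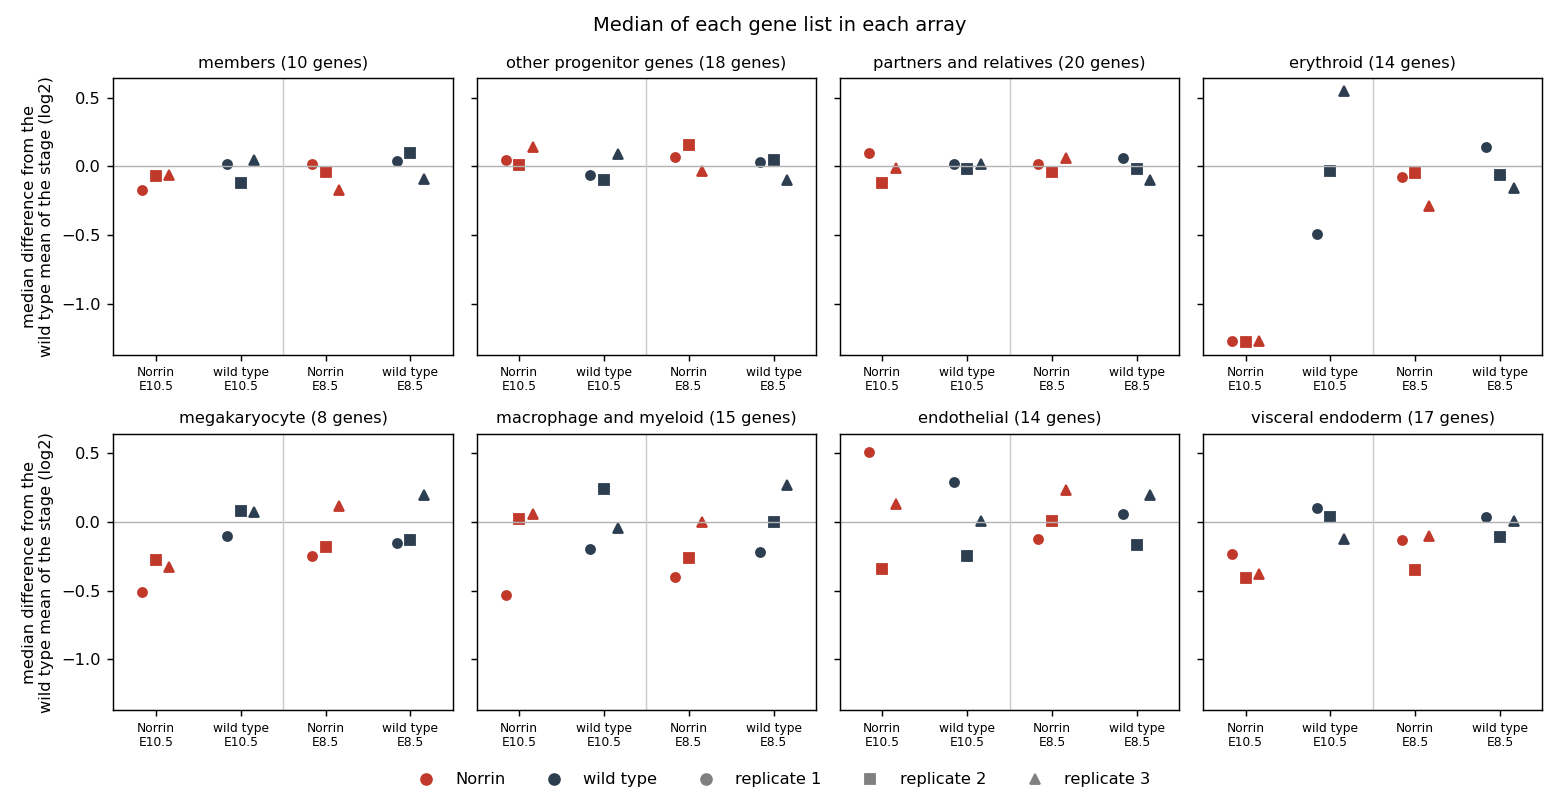
Median, over the genes of each list, of the log2 difference from the wild type mean of the stage, for every array; Norrin is left of wild type at each stage and symbols mark replicate numbers. The erythroid median of the 3 Norrin pools at E10.5 lay at -1.27 to -1.28, below wild type at -0.49 to 0.55, while the medians of the 10 members lay at -0.17 to -0.06 in Norrin and -0.12 to 0.05 in wild type.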

How the data were processed

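Trizol and RNeasy were used to extract total RNA, which carried a biotin label, per the labels. The authors deposited log2 expression values. RMA is the method that the submitters' processing notes name, without a version. It subtracts background, forces arrays to 1 distribution and condenses probes to 1 value per probe set, so it compresses differences near the floor and top of the scale. The table held 45101 probe sets on 12 arrays. The 64 control probe sets, 932 with several genes and 9160 unnamed here were left out, which left 34945 probe sets of 18193 genes. Arrays have no read depth. Their number, 3 per group, limits the precision.

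Effects were fitted with limma 3.58.1 (R 4.3.3), with 1 mean per group over all 12 arrays, moderated by eBayes, two-sided, with Benjamini-Hochberg adjustment over all genes and a threshold of 0.05. A second fit of the same form ran over all 34945 single-gene probe sets for the members' other probe sets. All adjusted p-values are from these limma fits. Alternatives were the replicate block, median centring, quantile normalization, array weights, a variance trend, a filter on dim genes, the mean of all probe sets and each array left out. A further one used only the arrays of the groups compared. The code was tested on simulated data with known changes. "Apart" means that no array of a group overlaps the other group. Replicate numbers come from the sample titles. Same-numbered Norrin and wild type arrays deviated together (r = 0.726, 0.318 and 0.73 at E8.5, 0.506, 0.209 and 0.219 at E10.5), so the block within a stage is given beside the Norrin effects whose call it changes. Different-numbered arrays reached 0.296 at E8.5 and 0.156 at E10.5. Across stages same-numbered arrays had r from -0.359 to 0.204, with the highest between the Norrin replicate 2 pools.

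The members and lists were chosen with earlier results of these data known. Named beside the 10 members were up to 4 called genes per Norrin contrast of the progenitor and partner lists, and Klf1, Csf1r, Pf4, Cdh5 and Afp. Promoters of members past the threshold were to be shown: Runx1 passed by 2 probe sets, and Mecom only with the block. Ikzf1 passed with the block too, at E10.5 only, and its promoters are not shown. Sequences and positions are from RefSeq on GRCm38.p6, where all 10 members had a gene and 15 promoters. Drawing used Python with matplotlib.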

Additional observations from a re-analysis of the deposited data

How the results depend on the processing

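The numbers of members called without the block, 0 at E8.5, 0 at E10.5 and 0 for the difference between stages, stayed at 0 with median centring, quantile normalization, a mean-variance trend, the filter on dim genes and each array left out. With the replicate block they were 1, 2 and 1, and the block changed no other member's Norrin call by its chosen probe set. Between stages a replicate block across all 12 arrays ended the Hhex call in Norrin (adjusted p = 0.0531). With array weights they were 4, 2 and 2. These weights ran from 0.219 to 8.03, and 5147 genes passed at E8.5, against 14 without them (257 with the block). At E8.5 they were 8.03 for Norrin replicate 2 and 5.14 for wild type replicate 2, the pools with high Gapdh 3′ minus 5′ differences. The other E8.5 pools had 0.219 to 0.447, so the weighted E8.5 fit rested mostly on the replicate 2 pools. At E10.5 the counts over all genes were 2316 with weights, 2400 with the block and 741 without either. With the mean of all probe sets 1 member was called at E10.5, Runx1. Of the members' probe sets, 0 were called at E8.5, 2 with the block and 8 with weights. At E10.5 2 were called, 5 with the block, 6 with weights and 3 with only the E10.5 arrays. With quantile normalization 2 were called, with centring 1, with a mean-variance trend 1, and with 1 array left out 0 to 3. The probe set alternatives were added after the data were seen. Between stages in Norrin 5 members were called, 8 with weights and 3 to 5 with 1 array left out. Cbfa2t3 and Hhex were both lost without Norrin E8.5 replicate 2 or Norrin E10.5 replicate 2 or 3, Hhex also without Norrin E8.5 replicate 1 or wild type E10.5 replicate 3 and with only the arrays of the groups compared, and Cbfa2t3 also without Norrin E8.5 replicate 3 and with the mean of its probe sets. No called effect changed sign. Of 1775 alternative values of single genes, 72 changed sign where neither value passed. Where 1 array was left out, the remaining 2 of a group were taken to vary like the other groups. The causes of these changes were not tested.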
